A study of Homo sapiens with 8 samples.

Results

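Broad H3K4me3 domains were defined in SUM159 cells, an established line of mesenchymal, claudin-low triple negative breast cancer, as bases of chromosomes 1 to 22 that lay under a deposited peak in all 4 H3K4me3 libraries, in an unbroken stretch of at least 5000 bases that held the start of at least 1 protein-coding gene. The rule found 3418 domains among 153907 intervals shared by the 4 libraries, and 9066 of those intervals held a protein-coding start. The domains covered 29.4 Mb of 2875 Mb and held the starts of 4484 of 19111 protein-coding genes, a share of 23.5%. Members were thus chosen by the width of H3K4me3 peaks, and the widths, folds and q of those peaks are given as descriptions. All samples were transduced with a lentiviral vector and selected with puromycin, and carried dCas9-KRAB, a catalytically inactive Cas9 fused to a repressor domain that recruits H3K9 methylation. In All gRNA it came with 4 guides to the promoter of ZEB1, a transcription factor of the mesenchymal state, and in No gRNA the same vector had no guide. Native ChIP-seq of H3K4me3 and of H3K9me3 gave 2 libraries per group and mark, 8 in all, each labelled as a biological replicate.

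H3K4me3, trimethylation of lysine 4 of histone H3, marks the promoters of active and poised genes, where it is placed by the SET1 and MLL complexes, most of all over CpG islands. At most genes it forms a narrow peak around the start. At a minority it spreads into the gene body, and such broad domains are known for genes of cell identity, for steadily and strongly transcribed genes and for genes with paused polymerase. H3K9me3 is the mark of constitutive heterochromatin. It silences repeats and covers clusters of KRAB zinc finger genes, where ZNF274 and KAP1 bring the methyltransferase SETDB1.

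Labels and file names disagreed for 2 of the 4 H3K4me3 libraries. The library labelled All gRNA replicate 2 was deposited under a name for the vector without guides, and the library labelled No gRNA replicate 1 under a name for All gRNA. At ZEB1, the target of the guides, the peaks followed the file names and not the labels, with values given beside the gene. Labels were kept, no H3K4me3 value was compared between groups, and without these 2 libraries the same rule gave 5282 domains. The peak caller lists a single q, a value derived from the false discovery rate, for the whole width of a broad peak. How peak width bears on this q was not tested. The lists were permissive, since they kept peaks with q above 0.05: all peaks of a library together covered 21.2% to 31.8% of the autosomes. Only 7.28% of the domains (249) had a covering peak with q of 0.05 or lower in all 4 libraries, and 6.35% (217) had it in none. Values for single libraries are given below in the order All gRNA replicate 1, All gRNA replicate 2, No gRNA replicate 1, No gRNA replicate 2. In this order the domains with such a peak numbered 2068, 664, 739 and 3133, the most in No gRNA replicate 2. Depth is unknown, because peak lists hold no counts.

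The sequences just upstream of 4 gene starts show the range of promoters that the domains cover. They are printed from hg38, 200 bases that end 1 base before the annotated start, on the strand of the gene, with CpG dinucleotides in capitals. MYH9 had the widest domain (chr22:36388011-36388210, minus strand), ACTN4 a domain of similar width (chr19:38647449-38647648, plus strand), FOSL2 is an AP-1 subunit (chr2:28392248-28392447, plus strand) and ZNF468 lay in the domain with the most H3K9me3 around it (chr19:52857650-52857849, minus strand).
MYH9: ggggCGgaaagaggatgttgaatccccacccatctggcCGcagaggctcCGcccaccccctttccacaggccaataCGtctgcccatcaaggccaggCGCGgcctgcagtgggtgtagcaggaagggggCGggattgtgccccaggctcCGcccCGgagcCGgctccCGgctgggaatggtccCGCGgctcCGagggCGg
ACTN4: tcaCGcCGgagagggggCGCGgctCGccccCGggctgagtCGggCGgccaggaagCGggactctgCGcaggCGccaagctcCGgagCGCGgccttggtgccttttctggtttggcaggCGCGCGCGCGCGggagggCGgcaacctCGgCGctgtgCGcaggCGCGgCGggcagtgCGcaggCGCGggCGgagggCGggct
FOSL2: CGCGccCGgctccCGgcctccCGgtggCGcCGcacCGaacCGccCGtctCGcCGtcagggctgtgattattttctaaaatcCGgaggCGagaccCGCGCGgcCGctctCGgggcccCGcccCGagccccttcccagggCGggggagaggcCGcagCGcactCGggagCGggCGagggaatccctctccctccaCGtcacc
ZNF468: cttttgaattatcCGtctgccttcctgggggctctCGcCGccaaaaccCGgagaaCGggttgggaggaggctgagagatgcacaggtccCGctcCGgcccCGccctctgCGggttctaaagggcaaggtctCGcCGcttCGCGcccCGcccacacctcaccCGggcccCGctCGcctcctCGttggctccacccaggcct
The windows held 15 CpG for MYH9, 32 for ACTN4, 28 for FOSL2 and 18 for ZNF468. Only the last 53 bases of the MYH9 window lay inside the domain, whereas the other windows lay inside it over all 200 bases.

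Widths had a long upper tail. The median domain was 7173 bases wide, with quartiles of 5895 and 9675 bases, and the widest spanned 65486 bases. Of the 3418 domains, 1861 were under 7.5 kb and 97 reached 20 kb or more. Within the libraries the covering peaks were wider than the part they shared: their median width was 10774, 12247, 12835 and 14269 bases in the 4 libraries. Every domain lay in a single deposited peak in each library. All 4 libraries took part in setting the edges, with shares from 16.3% of edges in No gRNA replicate 2 to 32.8% in All gRNA replicate 1.

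MYH9, which encodes the heavy chain of non-muscle myosin IIA, had the widest domain (chr22:36322578-36388063). The covering peak measured 77075, 65486, 174366 and 125365 bases in the 4 libraries, so that the library labelled All gRNA replicate 2 set both edges. The domain began 53 bases upstream of the start and ran 65432 bases into the gene. BCL2L1, an inhibitor of apoptosis, followed with 63977 bases (chr20:31660466-31724442), of which 63523 lay downstream of its start. Both domains thus lay almost wholly over the gene body, on the side of transcription.

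A domain of 60560 bases held the starts of HIPK2, a nuclear kinase, and TBXAS1, thromboxane synthase (chr7:139725170-139785729). ACTN4, the actin crosslinker alpha-actinin 4, had 59070 bases (chr19:38645884-38704953), with covering peaks of 69492, 68422, 91548 and 63122 bases in the same order of libraries. PXN, the focal adhesion scaffold paxillin, had 43294 bases, and BCAR1, its partner p130Cas, had 34895 bases. Of the 12 widest domains, those of MYH9, ACTN4, PXN, BCAR1 and ANXA2 (37659 bases) thus held genes of the actin cortex and of adhesion.

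The remaining members of the 12 widest were of mixed kinds. A domain of 43127 bases on chromosome 12 held 6 starts, among them HOXC10, HOXC9, HOXC8, HOXC6 and HOXC4, homeobox genes of body axis patterning. MYC, the transcription factor of growth, had 39378 bases. Domains of 37508, 37086 and 36975 bases each held several genes: ATP5F1D, MIDN, CIRBP and FAM174C in the first, MXRA7, JMJD6, METTL23, MFSD11 and SRSF2 in the second, and AHNAK and EEF1G in the third. At the lower bound, the domains of NAA16 (5000 bases) and CAPNS1 (5001) were just inside, and the intervals of SSX2IP (4999), LRRC58 (4998) and NECTIN1 (4998) just outside.

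**Figure D1:**
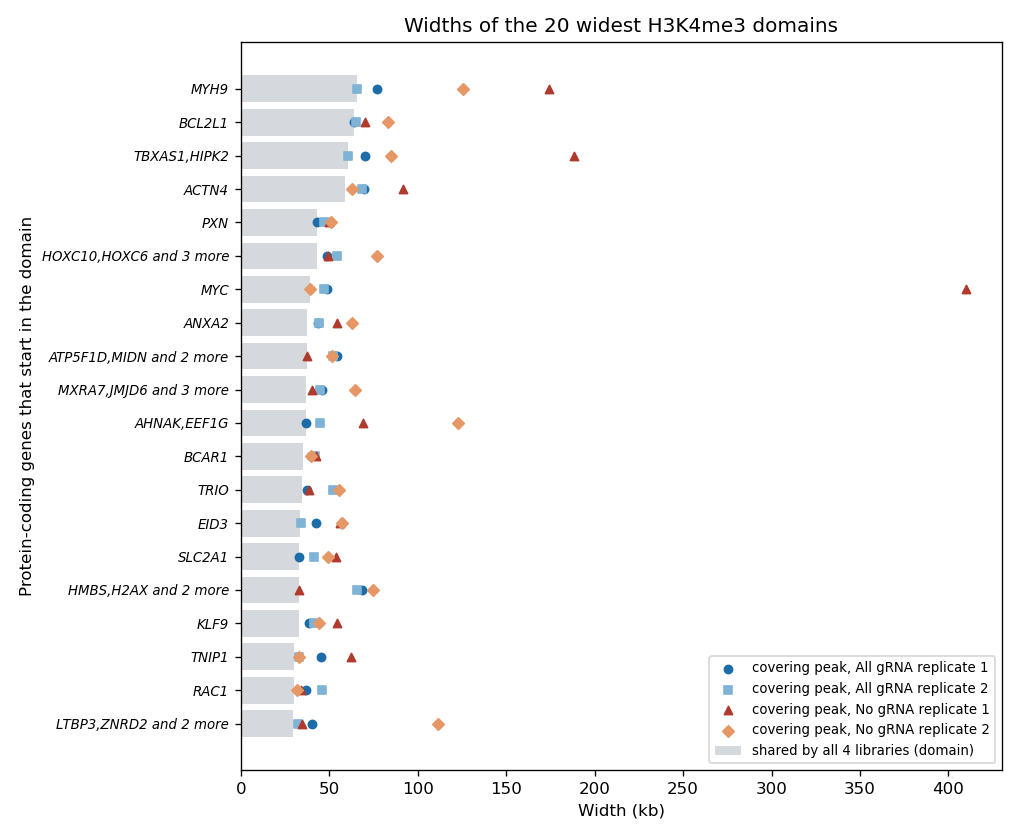
Widths in kb of the 20 widest domains (grey bars, the part shared by all 4 libraries) and of the peak that covers each in every H3K4me3 library (points). The shared part runs from 65486 bases at MYH9 downwards, and single libraries reach far beyond it, as at MYC, where the peak of No gRNA replicate 1 spans 409803 bases.

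Domains lay mainly downstream of the start. In the 2526 domains with 1 gene, the median distance from the start to the edge was 1944 bases upstream and 4952 bases downstream, and 83.3% (2105) extended farther into the gene than away from it. Narrower shared intervals, the 5162 that held a start and measured 1 kb to under 5 kb, did so in 77.7%. In the 64 domains of 20 kb or more with 1 gene the share was 89.1%, with medians of 3563 bases upstream and 19091 downstream. The distances on both sides add up to the width, so the farther reach of wider domains follows from how the classes were made. The rule did not set the side, which was mostly downstream. The start used was the outermost annotated start of a gene, however, so any other start of the same gene lay downstream of it. Domains held a median of 4 starts of protein-coding transcripts. The part of the downstream reach that goes with such starts was not tested. The share was about level between 5 and 20 kb, at 83.6%, 82.5% and 82.7% in the 3 classes under 20 kb. These are descriptions over regions, which are not replicates, and no test was made.

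Several starts often shared a domain. Of the domains, 892 (26.1%) held at least 2 protein-coding starts, against 13.5% of the narrower intervals, and 445 (13.0%) held a divergent pair, against 6.35%. No allowance was made for the greater width of the domains. Among chromosomes, the share of genes that started in a domain ran from 15.2% on chromosome 13 to 32.1% on chromosome 16, and chromosome 19 was the densest with 4.50 domains per Mb.

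CpG content fell with width, with no allowance for the sequence farther from the start that wider intervals take in. Domains held a median of 2.91 CpG per 100 bases, narrower intervals 4.01, and domains of 20 kb or more 2.18, while the 5 kb flanks of the domains held 1.40. In windows from 250 bases upstream to 50 bases downstream, genes of the domains had a median of 26 CpG, genes of narrower intervals 23, and the 8211 genes in no shared interval 7. Genes of domains of 20 kb or more had a median of 23, the same as in narrower intervals.

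**Figure D2:**
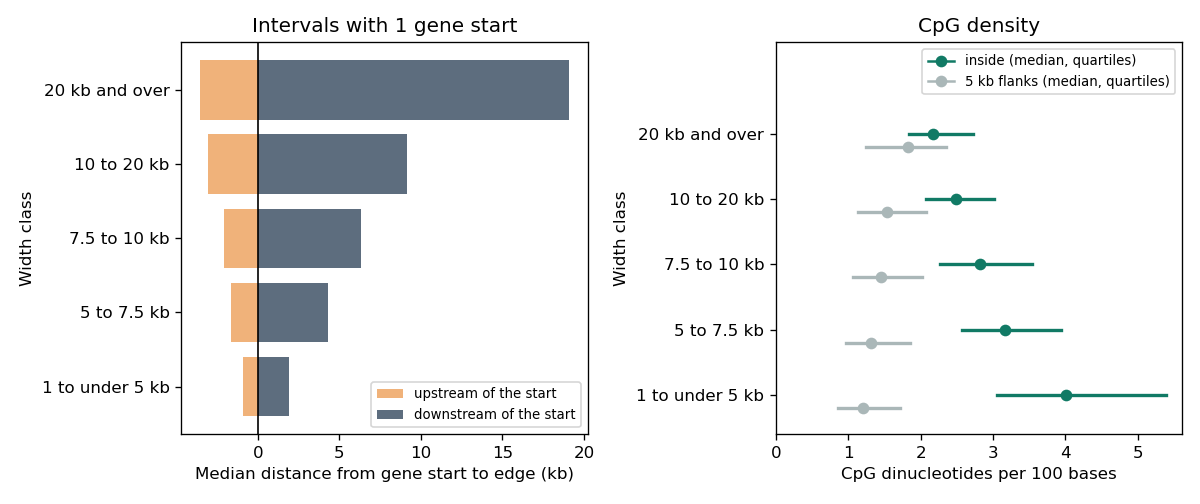
Left, median distance in kb from the gene start to the upstream and downstream edges of intervals with 1 start, by width class; right, CpG dinucleotides per 100 bases inside the intervals and in their 5 kb flanks (points, medians; lines, quartiles). The downstream part grows from 4295 bases at 5 to 7.5 kb to 19091 bases at 20 kb and over, and CpG density inside falls from 4.01 in narrower intervals to 2.18.

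Short motifs in these 300-base windows were counted as exact letters on both strands. The GC box of SP factors, GGGCGG, occurred in 67.3% of the 4484 members' windows and in 52.6% of all 19111. The ETS letters CCGGAAG occurred in 18.5% of members against 11.9% of all, and the core of the cyclic AMP response element, TGACGT, in 13.2% against 8.77%. The TATA box, TATAAA, was rarer in members (6.45%) than in all windows (10.9%). Narrower intervals had similar values for the GC box (65.2%), the ETS letters (18.6%) and the TATA box (5.99%).

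Sites of factors tied to the mesenchymal state were not more frequent in the members' windows than in all windows. The AP-1 letters TGACTCA occurred in 3.30% of members and 4.00% of all genes, the ZEB E-box CACCTG in 17.2% and 21.7%, and the TEAD letters GGAATG in 11.1% and 12.8%. For genes of narrower intervals the 3 shares were 3.22%, 20.4% and 11.9%. For genes in no shared interval they were 4.63%, 25.1% and 14.2%. Among the 163 genes of domains of 20 kb or more, AP-1 letters occurred in 11 (6.75%), the cyclic AMP core in 33 (20.2%) and the TATA box in 19 (11.7%). None of these matches is shown to be a bound site.

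Gene lists were read against the share of all protein-coding genes that started in a domain, 23.5%. The AP-1 and immediate early genes, which answer growth signals within minutes, stood at the top with 22 of 25 (88%). DUSP5, a phosphatase of ERK, had a domain of 26082 bases, and the AP-1 subunits FOSL2, JUNB and FOSL1 had 24395, 24104 and 18841 bases, while FOS and JUN had 6498 and 6063. The FOSL2 peak measured 42734, 24395, 52018 and 40531 bases in the 4 libraries. KLF2 (2561 bases), ATF3 (539 bases) and IER3 (no shared interval over its start) were the exceptions.

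Cytosolic ribosomal protein genes followed with 61 of 76 (80.3%), led by RPL41 with 22289 bases, and housekeeping genes with 18 of 26 (69.2%), with 21463 bases at HNRNPA1, a splicing regulator. Both lists share RPL13A. Replication-dependent histone genes started in a domain in 43 of 70 cases (61.4%), but these 43 genes shared only 20 domains, such as the one of 17609 bases with H2AC15, H2BC15, H4C11 and H4C12. Actin and focal adhesion genes, a list drawn up after the widest domains had been seen, counted 34 of 48 (70.8%); ACTB and ACTG1, the cytoplasmic actins themselves, had narrower intervals of 3391 and 2559 bases.

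Signalling pathways of the mesenchymal state were above the background as well. Of the TGF-beta pathway genes, 12 of 22 (54.5%) started in a domain: the receptor TGFBR2 with 23633 bases, the signal transducer SMAD3 with 19368 and the inhibitor SMAD7 with 13343. The receptor TGFBR1 had no shared interval over its start. Of the YAP and TEAD pathway genes, 10 of 18 (55.6%) did so, among them AMOTL2 (20651 bases), TEAD3 (19024), CCN1 (13699) and YAP1 (13402).

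EMT transcription factors, which repress epithelial genes, gave 5 of 10 (50%). ZEB2 had 12244 bases, with covering peaks of 12751, 15383, 22162 and 13436 bases in the 4 libraries, FOXC2 had 11118 and SNAI2 7028. ZEB1, the target of the guides, was not a member: a deposited peak lay over its start in the library labelled All gRNA replicate 2 (5726 bases) and in No gRNA replicate 2 (7489 bases), and none in the other 2. By label, 1 library of each condition had a peak at ZEB1. By file name, both libraries named for the vector without guides had one and both named for All gRNA had none, so the targeted gene went with the names and against the labels of the 2 discordant libraries.

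Mesenchymal and matrix genes counted 13 of 36 (36.1%). TPM1, a tropomyosin, had 16485 bases, the hyaluronan receptor CD44 14177 and CAV1, caveolin, 13564. FN1 and VIM, fibronectin and vimentin, had 11880 and 11379. The fibrillar collagen genes COL1A1, COL1A2 and COL3A1 had no shared interval over their starts, so the list was not uniform.

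Epithelial junction and regulator genes stood at 1 of 26 (3.85%), far under the background. The member was PKP3, a desmosomal plakophilin, with 6015 bases, and CDH1, EPCAM, CLDN3, CLDN4, CLDN7 and GRHL2 had no shared interval over their starts. Basal breast genes gave 5 of 19 (26.3%), with ITGA6 (22276 bases), LAMB3 (15477), DST (10227) and EGFR (10130), and luminal genes gave 4 of 19 (21.1%), of which KRT8 and KRT18 shared 1 domain of 8798 bases. ESR1 and PGR had none. Cell cycle and growth genes gave 7 of 22 (31.8%), led by MCL1 with 26349 bases and CCND1 with 13172.

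Genes of other lineages were rare. Blood genes and liver and gut genes gave 0 of 17 and 0 of 14, neural genes 1 of 15 (TUBB3, 7278 bases) and muscle and heart genes 1 of 15 (NKX2-5, 6292 bases), and no olfactory receptor gene among 399 started in a domain. With the start of any protein-coding transcript, blood genes gave 3 of 17 (17.6%), against 25.6% of all genes. Without the 2 libraries whose file names carried the other condition, neural genes gave 3 of 15 (20%), against 36.5%. Liver and gut genes stayed at 0 of 14 and muscle and heart genes at 1 of 15 in both settings. In transcription factor families the shares ranged from under to slightly above the background, with 11 of 49 for FOX (FOXO3, 15794 bases), 5 of 17 for KLF (KLF9, 32686 bases), 3 of 18 for SOX (SOX12, 10143 bases), 2 of 13 for TBX (TBX3, 8296 bases) and 7 of 39 for HOX.

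The label of the cells was set beside small sets of defining markers. Of 8 mesenchymal markers 6 lay in a domain (among them VIM, FN1, CAV1, CD44 and TGFBI) and 2, CDH2 and AXL, in narrower intervals of 4279 and 3429 bases. Of 7 epithelial markers 0 did, and 6 had no shared interval at all. Of 4 blood markers 0 lay in a domain. Markers of breast epithelium were not all absent: of 6 luminal markers 2 lay in a domain (KRT8 and KRT18, which shared 1 domain), and of 6 basal markers 2 did (EGFR and LAMB3). All protein-coding genes stood at 23.5%. The longer mesenchymal and matrix list gave 13 of 36, and 1 of 36 with peaks of q 0.05 or lower. Housekeeping genes reached 18 of 26, so lying in a domain was not particular to lineage markers.

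The counts per list were repeated in other sets. Without the 2 libraries whose file names carried the other condition, 36.5% of all genes started in a domain, with 22 of 25 AP-1 and immediate early genes, 39 of 48 actin and focal adhesion genes, 17 of 36 mesenchymal and 4 of 26 epithelial genes. With peaks of q 0.05 or lower in every library, 332 genes (1.74%) remained, with 11 of 25, 6 of 48, 1 of 36 and 1 of 26 in the same lists. The AP-1 list thus stood above the share of all genes in both sets, whereas the mesenchymal list was no longer ahead of the epithelial list among the peaks of lower q.

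Edges of the domains were then compared with H3K9me3, which the rule had not used. H3K9me3 peaks with q of 0.05 or lower covered, as a mean over the domains, 0.447%, 0.390%, 0.307% and 0.759% of the 5 kb flanks in the 4 libraries. In these bulk samples, fewer cells with the mark and less of it per cell cannot be told apart. Inside the domains they covered 0.311%, 0.288%, 0.191% and 0.476%. Across the autosomes the same peaks covered 6.30%, 6.03%, 3.22% and 7.50%. In each library, the flanks thus held far less H3K9me3 than the genome as a whole, and the library with most H3K9me3 overall had the most at the flanks.

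Outside the edge, H3K9me3 was lowest in the first kb. In the first kb outside it, coverage was 0.332%, 0.291%, 0.235% and 0.507% in the 4 libraries, and between 19 and 20 kb away it was 0.728%, 0.712%, 0.383% and 1.05%. The nearest 5 kb held less than the stretch from 15 to 20 kb in 4 of 4 libraries, with a difference of -0.187 percentage points ± 0.113 (SD, n = 4; exact sign-flip permutation test, two-sided, p = 0.125, the smallest that 4 libraries allow). The median distance from an edge to the nearest such peak was 460, 507, 761 and 217 kb, and 0.614% to 1.99% of edges had one within 5 kb. With all deposited peaks, the last kb inside the edge held 7.08% and 6.94% in the No gRNA libraries. This was above their first kb outside, with 6.60% and 6.65%. In the All gRNA libraries the last kb inside held 3.41% and 3.78%, under the first kb outside, with 3.72% and 4.07%.

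**Figure D3:**
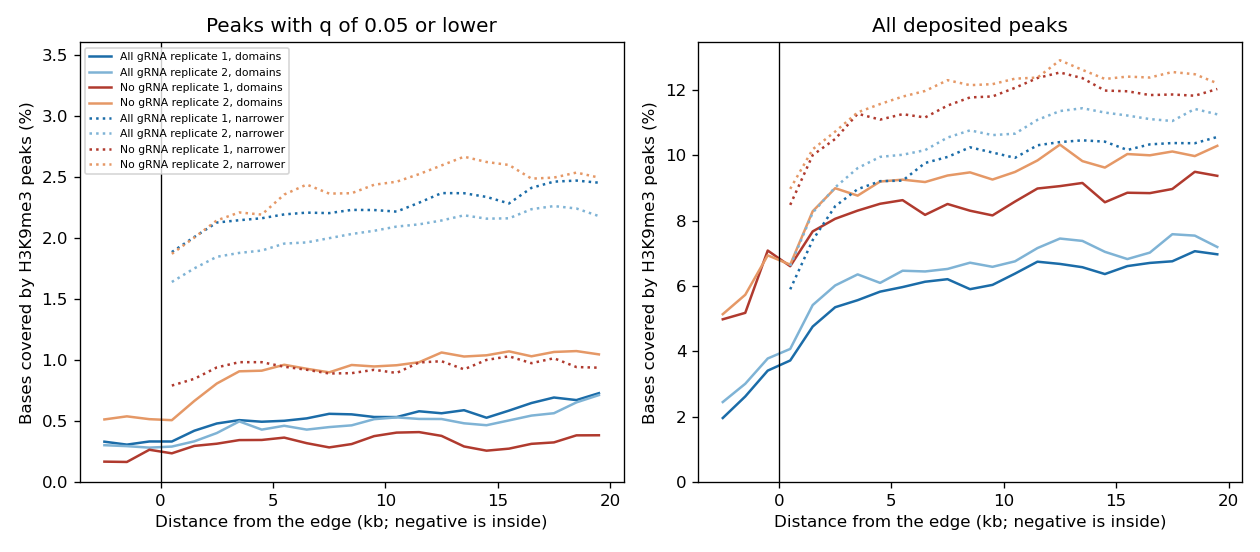
Percent of bases covered by H3K9me3 peaks per kb of distance from the edges of domains (solid) and of narrower shared promoter intervals (dotted), in each library, with peaks of q 0.05 or lower on the left and all deposited peaks on the right. Coverage at 20 kb is above that at the edge of the domains in every library, and the domains lie under the narrower intervals of the same library.

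Narrower promoter intervals had more H3K9me3 beside them than the domains. Their 5 kb flanks were covered to 2.06%, 1.80%, 0.908% and 2.08% in the 4 libraries, and the domains were lower in 4 of 4 libraries, with a difference of -1.24 percentage points ± 0.442 (SD, n = 4; exact sign-flip permutation test, two-sided, p = 0.125, the smallest possible). Zinc finger genes moved with this difference. Of 496 genes with a ZNF symbol, 254 started in a narrower interval, against 5909 of all 19111 genes. In a domain 87 (17.5%) started, against 23.5% of all genes. The 80 domains with a ZNF start had a mean flank coverage of 10.6%. When intervals with a ZNF start were left out of both sets, a choice made after seeing the data, 3338 domains and 4927 narrower intervals remained, and the difference was -0.110 percentage points ± 0.0702 (SD, n = 4; lower in 4 of 4 libraries; exact sign-flip permutation test, p = 0.125). The difference was thus smaller in each library without the zinc finger genes. With all deposited peaks it was -2.66 percentage points ± 0.429 (SD, n = 4) with them and -0.829 ± 0.297 without them, lower in 4 of 4 libraries both times.

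The 5 domains with the most H3K9me3 around them all held zinc finger genes of chromosome 19. One domain with ZNF28 and ZNF468 (chr19:52855295-52860596) was flanked to 97.2%, 95.4%, 94.1% and 94.1% in the 4 libraries. It was covered inside to 100%, 100%, 81.1% and 100%, and was the only 1 of 3418 domains with H3K9me3 in both flanks in all 4 libraries, a state that 0.342% of all 9066 shared promoter intervals showed. ZNF8 (mean flank coverage 87.5%), ZNF761 (87.3%), ZNF700 (84.6%) and ZNF480 (76.3%) followed. At ZNF761 and ZNF480 no H3K9me3 peak at this q lay inside the domain in No gRNA replicate 1, and in the other 3 libraries the peaks of both marks shared bases there.

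H3K9me3 lay inside the domain in all 4 libraries in 9 cases, or 0.263% of the domains, less often than in all shared promoter intervals (0.596%). Zinc finger genes were held by 6 of them (ZNF28 with ZNF468, ZNF121, ZNF8, ZNF700, ZNF263 and ZNF267). The other 3, named after their values were seen, were the domains of IRX2, a homeobox factor, of UQCRC1, a subunit of respiratory complex III, and of XPO5 with POLH. At IRX2 (chr5:2736114-2760597, 24484 bases) H3K9me3 covered 52.2%, 52.4%, 46.1% and 68.3% of the domain in the 4 libraries and at most 11.5% of its flanks.

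MYC was the 1 member of the 12 widest with H3K9me3 in its flanks. Its flanks were covered to 26.4%, 29.4%, 37.3% and 29.9% in the 4 libraries, whereas the flanks of the other 11 held none at q of 0.05 or lower. This coverage at MYC lay mainly on the side of higher coordinates, with 52.8%, 58.8%, 61.4% and 59.7%. The flank at lower coordinates had 0%, 0%, 13.2% and 0%. MYC and IRX2 also stood apart in the H3K4me3 lists, as the only 2 domains whose covering peak had a q of 1e-06 or lower in all 4 libraries. For MYC q was 2.46e-15, 9.19e-13, 1.74e-22 and 3.09e-31, at fold enrichments of just 2.20, 2.26, 2.68 and 3.18. In the 4 libraries 2107, 2981, 581 and 1631 other domains lay between the folds of MYC and IRX2. Their lowest q was 0.00428, 0.000902, 0.000579 and 5.00e-08, so in No gRNA replicate 2 MYC and IRX2 were not alone under 1e-06. Which control stood behind these folds and q is not given in the sources used here. The peak of No gRNA replicate 1 over MYC spanned 409803 bases. Read numbers and DNA copy number at these 2 loci were not tested.

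All gRNA and No gRNA did not separate in H3K9me3 at the domains. The flank mean was 0.419% ± 0.0398 (SD, n = 2) in All gRNA and 0.533% ± 0.320 (SD, n = 2) in No gRNA, and the groups overlapped (difference -0.115 percentage points; exact permutation test, two-sided, p = 1, where 2 against 2 libraries cannot go under 0.333). Inside the domains the means were 0.300% ± 0.0164 and 0.333% ± 0.201 (difference -0.0333 percentage points; exact permutation test, p = 1). Flanks were called higher in All gRNA where both of its libraries exceeded both No gRNA libraries by 25 percentage points or more, and this held for 0 domains, against 0.121% of all 9066 shared promoter intervals. In the other direction 1 domain (0.0293%) was called, and it was also the only 1 called among all 9066 intervals (0.0110%). It held ZNF3 (chr7:100075800-100082755), whose flanks were covered to 0%, 0%, 30.2% and 50%. With all deposited peaks the same flanks were covered to 50%, 50%, 58.9% and 53.1%, so this call rested on the q limit.

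With all deposited H3K9me3 peaks, those of higher q included, the groups no longer overlapped. Inside the domains coverage was 2.41%, 2.91%, 5.66% and 5.75% in the 4 libraries, a difference of -3.05 percentage points (exact permutation test, two-sided, p = 0.333, the smallest possible). The flanks had 5.04% and 5.59% against 7.83% and 8.38%. Across the autosomes the same lists covered 23.1%, 24.1%, 22.8% and 22.9%, so that in the lists as a whole the order was not the same. Narrower intervals showed the same order, with 4.86% and 6.29% against 6.98% and 8.02% inside. Of the 97 domains of 20 kb or more, 46.4%, 50.5%, 81.4% and 86.6% held any deposited H3K9me3 peak in the 4 libraries. Both No gRNA libraries were thus above both All gRNA libraries at the domains, in a design too small to pass a threshold of 0.05.

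**Figure D4:**
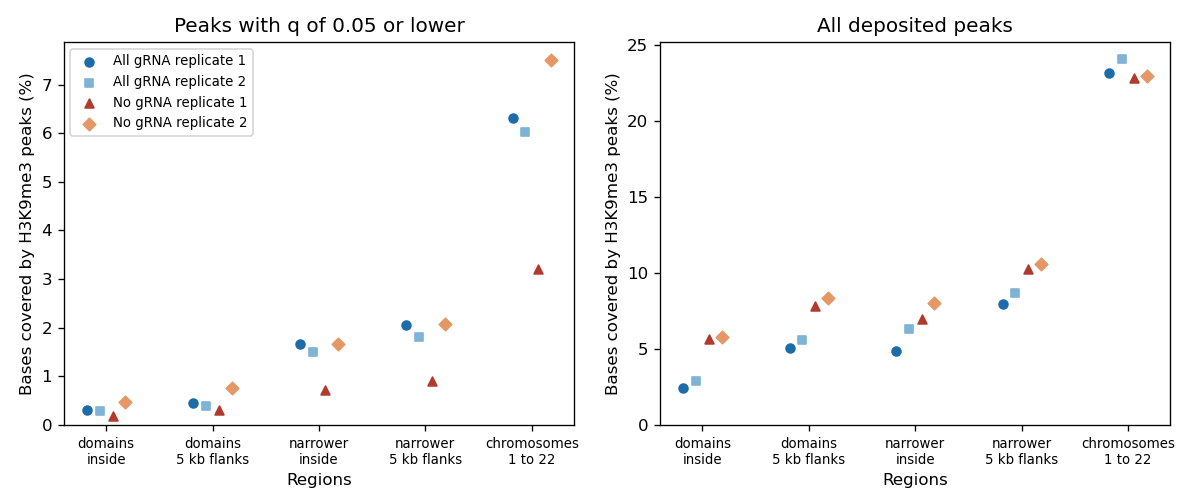
Percent of bases covered by H3K9me3 peaks in each library (points) inside and beside the domains, inside and beside narrower promoter intervals and over chromosomes 1 to 22, with peaks of q 0.05 or lower on the left and all deposited peaks on the right. The domains are the least covered regions on the left, and on the right the All gRNA libraries (2.41% and 2.91% inside) lie under the No gRNA libraries (5.66% and 5.75%).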

How the data were processed

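Native ChIP-seq peak lists of H3K4me3 and H3K9me3 were analysed for SUM159 cells, with 2 libraries per group and mark. Per the study's methods, reads were trimmed with fastp, mapped to hg38 with bowtie2, freed of exclusion-list regions and duplicates, and peaks were called with MACS2. The submitters' processing notes instead name bcl2fastq 2.17, Trimmomatic 0.33, Bowtie 1.1.2 and MACS2 2.1.0. For every peak the authors deposited its position, its fold enrichment (a ratio) and its q as −log10. Which of these pipelines made the lists, and whether input or IgG was the control, is not given in the sources used here, so folds and q are relative to an unknown background. No counts were given, so depth is unknown and no counting interval was computed.

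From these lists, intervals common to the 4 H3K4me3 libraries were intersected base by base and joined to GENCODE release 44 gene starts with Python 3.11.15, pandas 2.3.3 and pysam 0.24.0, on code tested on simulated intervals. H3K9me3 values are the mean share of bases under peaks with q of 0.05 or lower, 1 value per library. Groups were compared by exact permutation of the library values, and domains with narrower intervals or near with far flanks by exact sign-flip permutation within libraries (scipy 1.17.1). The p-values measure only the spread between these libraries. No 2 lists of a mark shared more than 31 identical peaks. Sequences came from hg38.

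Genes were named by rule: those of the 12 widest domains, of the 3 just inside and 3 just outside the width limit, of the 5 with the most flanking H3K9me3, of called domains, ZEB1, and 2 to 4 per gene list, widest first; other named members and non-members of the lists, and IRX2, UQCRC1 and XPO5 with POLH, were chosen after their values were seen, as was the actin and focal adhesion list. Members and lists were chosen with earlier results of these data known. Some members that the rule would name are not reported here.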

Additional observations from a re-analysis of the deposited data

Results flagged for a closer look

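Chromosome X lay outside the rule, and 22 intervals of 5 kb or more at protein-coding starts were found there, a signal in data that the comparisons above do not use. They held 28 of 859 genes (3.26%), a share under that of every autosome (15.2% to 32.1%), with a median width of 5940 bases. The cause of the lower share was not tested. The widest lay over ZFX (11899 bases), RPS4X (10016 bases) and HCFC1 with TMEM187 (8677 bases).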

How the results depend on the processing

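Limits: the domains rest on permissive peaks, 2 H3K4me3 libraries have labels that their file names and the peaks at ZEB1 go against, and 2 against 2 libraries cannot pass a threshold of 0.05. Against 3418 domains, the count was 249 with H3K4me3 peaks of q 0.05 or lower, 23 at 0.01, 5282 without the 2 libraries whose file names carry the other condition and 1353 with a minimum width of 8 kb. Leaving out each H3K4me3 library in turn gave 3720 to 4376 domains with medians of 7306 to 7542 bases, since fewer libraries had to agree. The median width was 10284 bases at q of 0.01 or lower.

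The All gRNA minus No gRNA difference in the flanks turned to 0.0443 at H3K9me3 q of 0.01 or lower, and that inside the domains to 0.101 there and to 0.0758 with an equal covered length in every library. Leaving out each H3K9me3 library in turn gave -0.341 to 0.112 in the flanks and -0.176 to 0.109 inside, and the values above 0 came without No gRNA replicate 2. The differences of the domains from narrower intervals (-1.45 to -1.11) and of near from far flanks (-0.240 to -0.151) kept their sign in these fits. At q of 0.001 or lower, the near minus far difference turned to 0.00378.

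Domains called higher numbered 2 at H3K9me3 q of 0.01 or lower, 4 with equal covered length, 1 with flanks of 2 kb, and 0 to 6 without single libraries, the 6 without All gRNA replicate 2 or without No gRNA replicate 2. Those called lower numbered 2 with all deposited peaks, 0 at q of 0.01 or 0.001, with equal covered length, with flanks of 10 kb or with a gap of 50 percentage points, and 2 to 13 without single libraries, the 13 without No gRNA replicate 1. In a replicate block the differences were -0.115 and -0.0333 (exact permutation within numbers, p = 1 for both), and 0 and 1 domains were called; the deviations of same-numbered libraries correlated with r = -0.126 over 8580 intervals, and with crossed pairing, tried after seeing the data, 1 and 1 were called. The cause of these changes was not tested, other than the fewer peaks or libraries that the settings leave. Of 96 alternative values, 69 were counted as unchanged. For the differences in H3K9me3 coverage this meant the same sign, whatever the size, while counts and widths also had a limit on size. With all deposited peaks, the group difference was -2.79 in the flanks against -0.115, and -3.05 inside against -0.0333. The domains minus narrower intervals gave -0.0199 at q of 0.001 or lower against -1.24. All of these were counted as unchanged.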

Other observations

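Intervals as wide as the domains also occurred away from protein-coding gene starts. Of the intervals of 5 kb or more shared by all 4 H3K4me3 libraries, 2828 held no such start. Of these, 704 held another start of a protein-coding transcript, 277 the start of a long noncoding RNA, 1346 lay in the body of a protein-coding gene with neither, and 501 lay elsewhere. The widest held LINC02912 (192961 bases) and PVT1 (105594 bases), both next to MYC on chromosome 8, and CASC19 (24421 bases) lay on the same chromosome. Among the abundant nuclear RNAs, the interval with MALAT1 spanned 41773 bases and that with NEAT1 19139 bases. CYTOR, a noncoding RNA named for its link to the cytoskeleton, lay in an interval of 35414 bases, and MIR23AHG, the host of a microRNA cluster, in one of 19998 bases.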
